A study of Mus musculus with 12 samples.

Results

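PIR, the paired immunoglobulin-like receptor, divides the early progenitors of the mouse fetal liver into cells that carry it and cells that do not. The comparison described here sets the PIR+ fraction against the PIR- fraction within KO embryos. It rests on 6 of the 12 libraries of the series, chosen by sample title: 3 labelled PIR+ KO and 3 labelled PIR- KO. The remaining 6 libraries, 3 PIR+ wt and 3 PIR- wt, come from wild-type embryos and are used to ask whether the difference between the fractions depends on genotype. All 12 were made from lineage-negative, c-Kit-positive liver cells sorted 100 to a tube by flow cytometry. The series title places them at E12.5, counted in days of embryonic life, but the source name gives E14.5 for 6 of them, among these PIR+ KO replicates 1 and 2 and PIR- KO replicates 2 and 3. The labels do not name the gene that was knocked out, give no strain, and do not say that the 3 libraries of a group came from separate embryos. The p-values therefore measure the spread between these libraries, which may be technical. Of 23420 genes in the deposited table, 14177 were above 0 in at least 1 library, and the 4542 with a value of 10 or more in at least 3 of the 12 libraries were tested.

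PIR comes in an activating form, PIR-A, encoded by several Pira genes, and an inhibitory form, PIR-B, encoded by Lilrb3. PIR-A signals through the Fc receptor gamma chain, encoded by Fcer1g. In the fetal liver PIR has been used to mark lymphoid progenitors that are directed towards the thymus, while progenitors without it include cells that have begun B-cell development. An early B-cell progenitor is recognised by the surrogate light chain (Igll1 and the Vpreb genes), by the signalling chains of the B-cell receptor (Cd79a and Cd79b) and by the transcription factors that switch these on, among them E2A (Tcf3), EBF1 and the coactivator encoded by Pou2af1. Id proteins such as Id2 bind E proteins and block their action.

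Promoters (RefSeq, build GRCm38.p6) are shown first for 4 genes per direction that carry the comparison. They have the largest folds with an entry there among genes called on both scales, averaging 20 or more in the higher fraction and not overlapping between the fractions: 4 surrogate light chain and receptor genes that were near or at 0 in PIR+ KO cells, and 4 genes that were near 0 in PIR- KO cells. Each line is a window of 300 bases, from 250 before the start of the gene to 50 after it, read 5′ to 3′ along the gene's own strand. Capitals mark matches, on either strand, to CANNTG (the E-box bound by E proteins and their partners), TGTGGT (the Runx core) and GGAAG (the Ets core), and overlapping matches run together. The windows lie at chr16:16863936-16864235 (minus strand, Igll1), chr7:24897247-24897546 (plus, Cd79a), chr16:16869206-16869505 (minus, Vpreb1), chr10:75948050-75948349 (plus, Vpreb3), chr12:12941787-12942086 (minus, Mycn), chr12:25096043-25096342 (minus, Id2), chr13:60936576-60936875 (minus, Ctla2a) and chr9:15306399-15306698 (minus, 4931406C07Rik).
Igll1: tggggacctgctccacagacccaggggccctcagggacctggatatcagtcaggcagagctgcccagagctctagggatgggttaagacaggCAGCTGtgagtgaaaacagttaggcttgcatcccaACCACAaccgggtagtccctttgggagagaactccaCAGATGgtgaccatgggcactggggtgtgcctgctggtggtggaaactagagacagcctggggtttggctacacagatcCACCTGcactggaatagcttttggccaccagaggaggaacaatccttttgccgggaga
Cd79a: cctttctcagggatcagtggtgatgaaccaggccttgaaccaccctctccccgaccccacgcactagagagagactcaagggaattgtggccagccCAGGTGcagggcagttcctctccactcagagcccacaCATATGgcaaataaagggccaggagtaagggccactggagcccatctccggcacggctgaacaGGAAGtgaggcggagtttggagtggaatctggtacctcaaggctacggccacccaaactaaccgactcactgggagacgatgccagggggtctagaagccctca
Vpreb1: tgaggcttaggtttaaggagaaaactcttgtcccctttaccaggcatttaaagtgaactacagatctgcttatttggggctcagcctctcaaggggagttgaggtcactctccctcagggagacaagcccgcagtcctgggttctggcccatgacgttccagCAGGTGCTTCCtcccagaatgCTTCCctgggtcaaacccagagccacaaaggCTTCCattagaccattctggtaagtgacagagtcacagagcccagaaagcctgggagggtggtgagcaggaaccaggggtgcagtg
Vpreb3: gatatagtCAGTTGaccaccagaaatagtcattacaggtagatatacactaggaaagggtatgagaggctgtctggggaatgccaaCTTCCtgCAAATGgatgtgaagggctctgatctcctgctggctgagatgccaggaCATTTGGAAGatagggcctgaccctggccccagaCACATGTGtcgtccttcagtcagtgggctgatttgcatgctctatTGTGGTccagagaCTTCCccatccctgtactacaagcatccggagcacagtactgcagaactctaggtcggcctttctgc
Mycn: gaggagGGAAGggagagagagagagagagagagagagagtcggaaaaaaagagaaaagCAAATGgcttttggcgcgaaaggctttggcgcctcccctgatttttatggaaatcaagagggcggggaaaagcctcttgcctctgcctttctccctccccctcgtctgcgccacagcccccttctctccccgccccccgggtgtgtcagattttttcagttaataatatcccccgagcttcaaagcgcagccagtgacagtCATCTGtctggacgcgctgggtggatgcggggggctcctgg
Id2: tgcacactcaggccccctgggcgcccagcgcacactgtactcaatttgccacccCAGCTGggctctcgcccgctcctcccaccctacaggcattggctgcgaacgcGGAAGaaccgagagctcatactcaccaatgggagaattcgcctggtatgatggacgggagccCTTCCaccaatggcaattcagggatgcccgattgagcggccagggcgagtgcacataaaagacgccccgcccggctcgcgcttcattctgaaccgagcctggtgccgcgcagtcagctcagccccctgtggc
Ctla2a: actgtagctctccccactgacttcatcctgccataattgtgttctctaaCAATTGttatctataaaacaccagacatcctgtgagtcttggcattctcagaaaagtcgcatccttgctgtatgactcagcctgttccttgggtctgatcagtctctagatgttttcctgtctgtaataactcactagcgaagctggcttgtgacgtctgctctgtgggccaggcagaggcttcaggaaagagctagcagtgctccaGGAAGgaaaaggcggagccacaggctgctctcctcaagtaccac
4931406C07Rik: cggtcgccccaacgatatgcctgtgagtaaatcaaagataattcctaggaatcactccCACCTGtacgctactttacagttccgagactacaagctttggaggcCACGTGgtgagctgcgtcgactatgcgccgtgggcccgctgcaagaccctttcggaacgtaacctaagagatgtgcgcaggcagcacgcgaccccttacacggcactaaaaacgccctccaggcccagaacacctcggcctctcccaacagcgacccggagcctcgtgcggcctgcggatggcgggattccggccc

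All 8 windows held at least 1 CANNTG match, and the Vpreb3 window held 5. The letters TGTGGT occurred in the Igll1 and Vpreb3 windows and in none of the other 6. Over all 27025 promoters in the RefSeq table, 72.1% held CANNTG, 16.9% held TGTGGT and 71.1% held GGAAG. Among the genes called lower in PIR+ KO cells (defined below, 109 of 135 with a promoter) the shares were 70.6%, 14.7% and 74.3%. Among those called higher (276 of 367 with a promoter) they were 67%, 11.6% and 77.9%, and among all tested genes (3470 with a promoter) 60%, 11.7% and 78%. A match is a run of letters in the reference and not a measured binding site.

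The sort genes were read first. Values throughout are the authors' normalized molecule counts, and folds are log2 differences of log2(value + 1) with the standard error (SE) of the fit, PIR+ over PIR-. Pira2 (chromosome 7, 3836812 to 3845051, GRCm38) was 24.1, 14.3 and 9.3 in PIR+ KO replicates 1, 2 and 3 and 0 in all 3 PIR- KO libraries. In the same order, the PIR+ KO values were 12.6, 7.5 and 4.7 for Pira1 and 12.2, 8.8 and 6.2 for Lilrb3. Both were listed at 0 throughout PIR- KO. Fcer1g, the adaptor of PIR-A, was 6.7, 6.4 and 13.7 against 3.2, 0.6 and 2.2. The 4 tested genes of the 11 in the PIR list thus followed the titles, as the sort sets them to do. These receptor genes resemble each other closely, so the share of reads given to each is uncertain. Kit, the receptor used in the sort of every library, was 44.2, 37.7 and 56.3 in PIR+ KO and 19.1, 21.3 and 34.5 in PIR- KO libraries, which do not overlap. Its fold of 0.89 ± 0.23 (SE, limma adjusted p = 0.00244) was not called after rescaling (0.49, adjusted p = 0.0666).

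Il7r, the interleukin-7 receptor gene, was 9.7, 11.8 and 16.0 in PIR+ KO and 24.4, 16.1 and 23.5 in PIR- KO libraries. The fold was -0.73 ± 0.27 (SE, limma adjusted p = 0.0332). Every PIR- KO value lay above every PIR+ KO value, as in 3.43% of all tested genes. The call was lost in 7 of 27 alternative analyses, among them the one without the libraries rich in Hba-a1. The series title describes the second population as lacking IL7R, whereas the markers field describes all of them as IL7Ra+. The markers field also gives a PIR sign opposite to the title in PIR+ KO replicates 1 and 2 and in PIR- KO replicate 1, and the source name gives E12.5 for markers PIR+ and E14.5 for markers PIR-. Groups were taken from the titles because the Pira genes and Lilrb3 follow them in every library. Keeping only libraries whose markers field and title concur leaves PIR+ KO replicate 3 alone against PIR- KO replicates 2 and 3. In wild type it leaves PIR+ replicates 1 and 2 against PIR- replicate 1 alone. A call kept or lost with that choice therefore rests on very few libraries.

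The 6 libraries were alike within a group, and some stood apart in messages that are not part of the sort. Their values summed to 246372 ± 34739 (SD, n = 3) in PIR+ KO and 193537 ± 26814 in PIR- KO, so the ratio was 1.27 (two-sided exact permutation test over libraries, p = 0.2, where 3 against 3 cannot give less than 0.1). Genes above 0 numbered 11119 ± 94.0 and 10530 ± 104 (SD, n = 3 each, exact permutation p = 0.1). Log values correlated across genes at 0.952 to 0.959 within PIR+ KO, 0.946 to 0.952 within PIR- KO and 0.825 to 0.848 between them, where genes are not independent replicates. Hba-a1, an adult alpha globin, stood at 377.7 in the first PIR+ KO library and 547.3 in the first PIR- KO library, and 11 to 18 in the other 4 KO libraries. Xist, the RNA that coats the inactive X chromosome, was 31.5, 31.3 and 34.2 in PIR+ KO and 10.1, 6.9 and 14.7 in PIR- KO libraries. Ddx3y, from the Y chromosome, was 1.2, 2.0 and 0.8 against 7.3, 9.2 and 8.8. Sex-linked messages thus moved with the PIR sign in KO, and the embryo sex and the PIR sign cannot be told apart in these libraries. Of 129 tested X-linked genes 12 (9.3%) were called higher and 1 (0.775%) lower on both scales, beside 335 (8.01%) and 132 (3.16%) of 4183 genes on chromosomes 1 to 19.

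**Figure D1:**
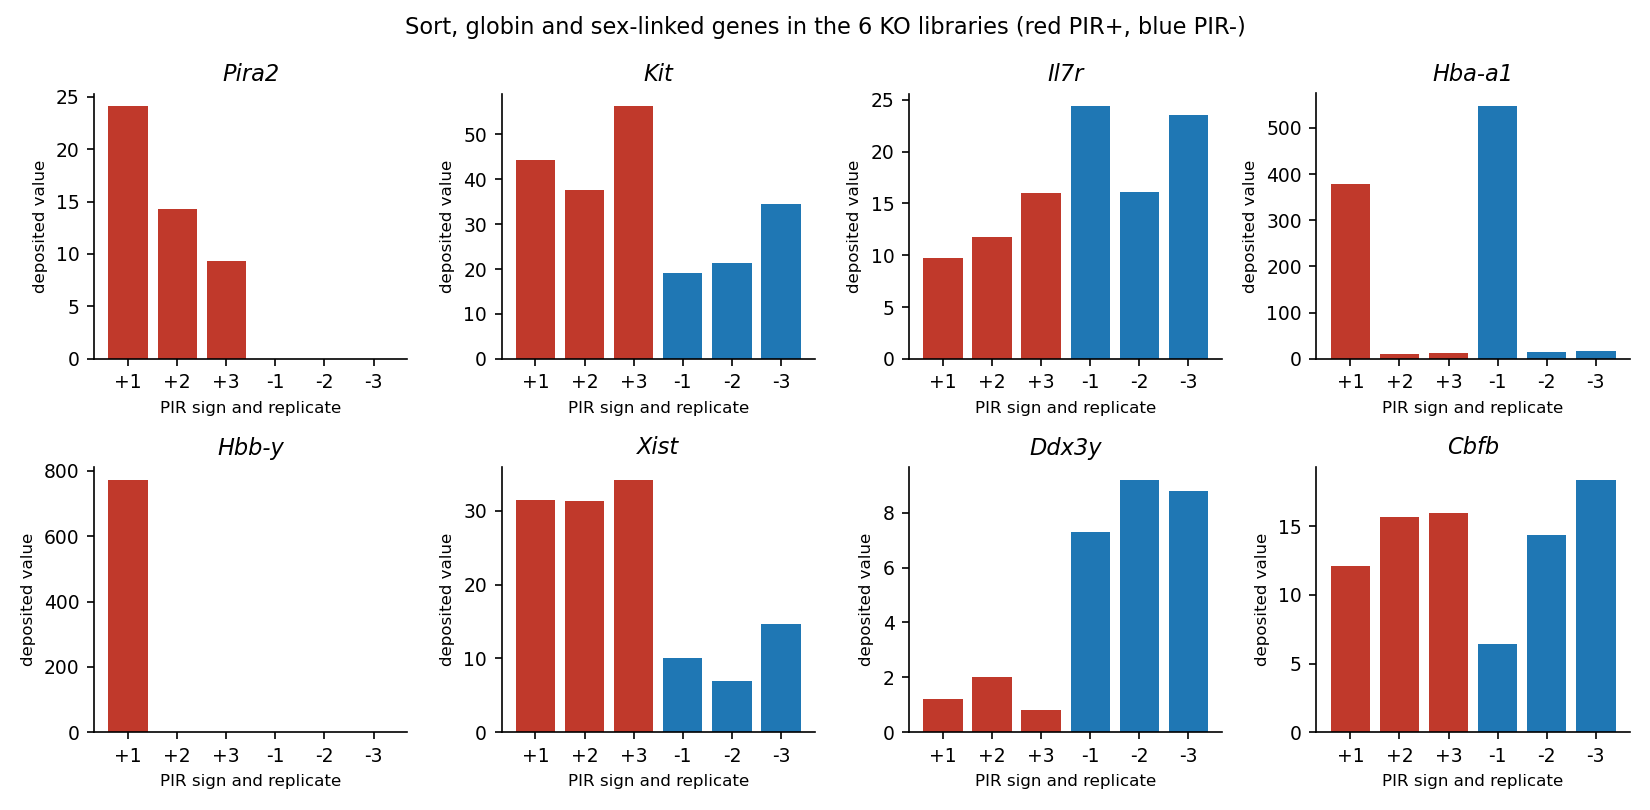
Normalized molecule counts (y axes, each from 0) of sort, globin and sex-linked genes and of Cbfb in the 6 KO libraries (x axis, PIR sign and replicate number). Pira2 is above 0 only in the 3 PIR+ KO bars, Hba-a1 is high in 1 library of each group, Hbb-y is high only in PIR+ KO replicate 1, and Xist and Ddx3y differ between the groups.

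Across all tested genes, more messages were higher than lower in PIR+ KO cells. Limma called 1158 of 4542 genes (25.5%), 1023 higher (22.5%) and 135 lower (2.97%). The median gene was itself 0.39 higher (log2) in PIR+ KO on the deposited scale. After median-of-ratios scaling (each library divided by its median ratio to the other libraries), which brings the median gene to 0.0034, 712 genes were called (15.7%), 367 higher and 345 lower. Genes called with the same sign on both scales numbered 367 higher (8.08%) and 135 lower (2.97%), and these are meant below by "higher" and "lower" on both scales. Of all tested genes, 1776 (39.1%) had no overlap between the 3 and 3 libraries, 1620 higher (35.7%) and 156 lower (3.43%). Among all deposited genes, 158 were above 0 in all PIR+ KO and 0 in all PIR- KO libraries, and 71 the other way round. A gene near 0 in 1 fraction entered the test only where it was high in another group. In tubes of mixed cells, fewer cells that express a gene and less RNA per cell cannot be told apart. Without PIR+ KO replicate 3 the count of called genes fell to 662 and without PIR- KO replicate 1 to 720. It was 576 without the libraries rich in Hba-a1.

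**Figure D2:**
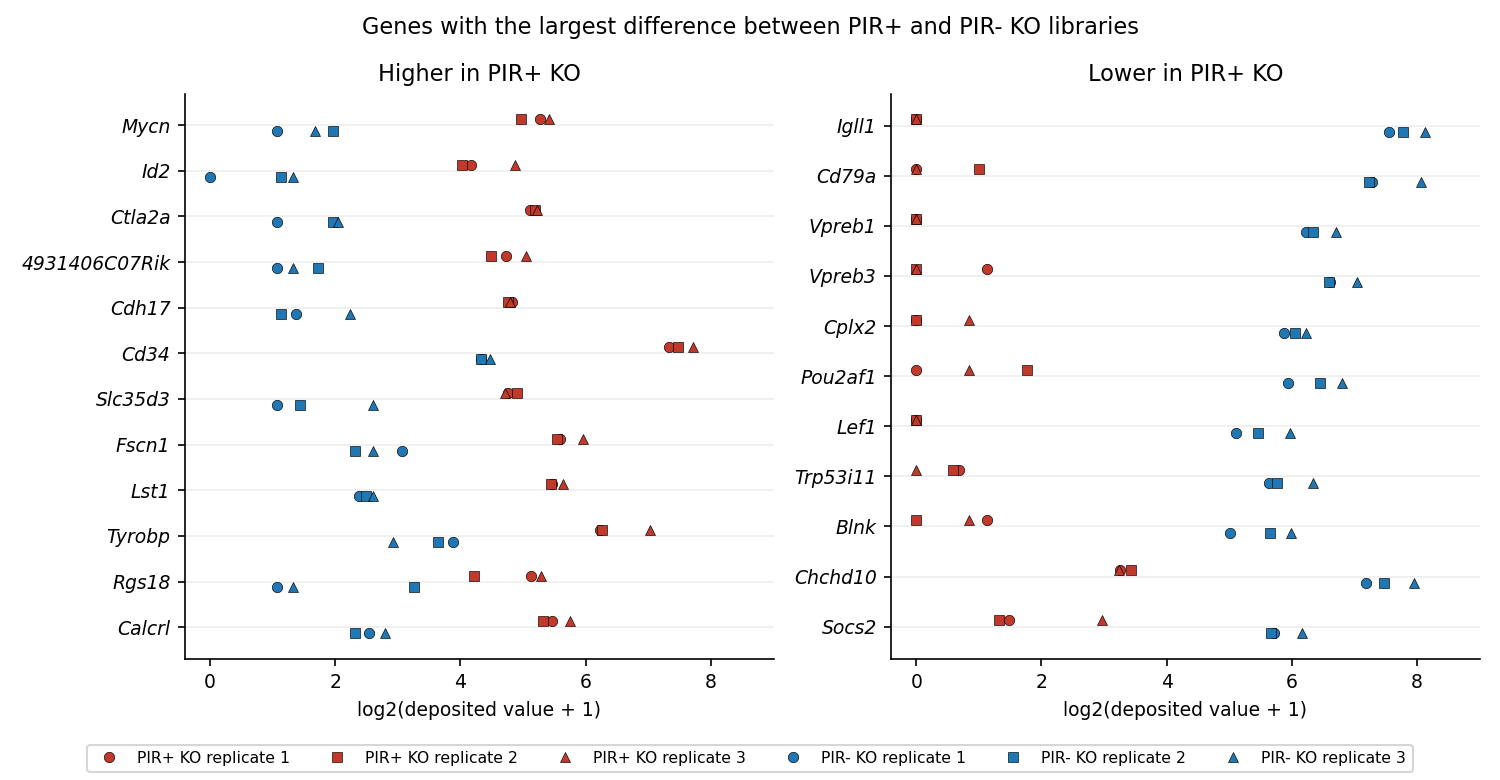
The genes reported here among the 12 of largest fold per direction that were called on both scales, without overlap and averaging 20 or more where they are higher (x axis, log2(value + 1), 1 marker per library). Igll1, Vpreb1 and Lef1 are at 0 in all 3 PIR+ KO libraries, and Cd34 reaches the highest values of the genes higher in PIR+ KO.

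The genes of the pre-B-cell receptor and its signalling were the ones with the largest differences between the KO fractions. Igll1, the lambda5 chain of the surrogate light chain (chromosome 16, 16860671 to 16863985), was 185.9, 218.5 and 277.0 in the PIR- KO libraries and 0 in all 3 PIR+ KO libraries (limma adjusted p = 2.52e-46). The partner chain Vpreb1 was 73.6, 79.6 and 103.6 in PIR- KO and also 0 in every PIR+ KO library, while its near-identical copy Vpreb2 was below the filter, so reads may be shared between the pair. Both chains were thus listed at 0 throughout PIR+ KO. Vpreb3, which assists in assembly of the receptor, was 96.4, 95.1 and 130.0 in PIR- KO against 1.2, 0 and 0. Cd79a (chromosome 7, 24897381 to 24902197) was 154.1, 148.8 and 266.7 in PIR- KO against 0, 1.0 and 0, a fold of -7.19 ± 0.27 (SE, adjusted p = 1.62e-44). Cd79a encodes the Ig-alpha signalling chain, and only 1 of the 3 PIR+ KO libraries registered it at all.

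The steps that follow the receptor separated the fractions as well. Blnk, the adaptor that links the receptor to calcium signalling, was 31.2, 49.0 and 62.5 in PIR- KO and 1.2, 0 and 0.8 in PIR+ KO libraries. Its fold was -4.89 ± 0.36 (SE, adjusted p = 2.97e-22), and the naming rule required that its libraries not overlap. Of 22 B-lineage genes 15 passed the filter. On both scales 13 were lower in PIR+ KO (2.97% over all genes) and 1 was higher (8.08%). Their median fold was -4.89 beside 0.39 over all tested genes. Bank1, a B-cell scaffold protein, named here after its value was seen, was the higher one, at 19.4, 15.7 and 18.3 against 3.2, 5.2 and 13.2. It was not called without the libraries rich in Hba-a1, nor with only libraries whose markers field and title concur. Rag2 was not called, at 17.6, 13.7 and 22.1 against 19.1, 17.3 and 23.5. Summed over the 22 genes, the B-lineage level was 87.2 to 110.4 in PIR+ KO and 1125.4 to 1698.6 in PIR- KO libraries. The count of 13 lower was the same without the libraries rich in Hba-a1.

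Among transcription factors of B cells, 9 of 14 tested members were lower in PIR+ KO on both scales (2.97% over all genes) and 1 higher (8.08%). Their median fold was -1.54. Ebf1, which opens the B-cell program, was 15.4, 16.7 and 14.7 in PIR- KO and 1.2, 0.5 and 0.8 in PIR+ KO libraries (fold -3.19 ± 0.40 SE, adjusted p = 2.08e-10). Pou2af1 (chromosome 9, 51213708 to 51240080), the OCA-B coactivator, was 60.4, 86.5 and 110.2 against 0, 2.4 and 0.8. Lef1, a partner of Wnt signals in young lymphocytes, was 33.4, 43.2 and 61.7 in PIR- KO and 0 in every PIR+ KO library. Pou2af1 and Lef1 were named by a rule that required no overlap. Spib, an Ets factor, was 12.2, 3.5 and 7.3 in PIR- KO and again 0 in the 3 PIR+ KO libraries. Pax5, which fixes B-cell commitment, did not pass the filter, with at most 0.7 in any KO library. Named after their values were seen, Foxo1 (31.8, 25.4 and 44.8 in PIR- KO against 6.1, 2.4 and 5.3), Bach2, Irf4 and Myb were also among the 9. The member higher in PIR+ KO, also named after its value was seen, was Pou2f2, which encodes the octamer factor Oct-2. It was 24.8, 23.5 and 34.2 against 10.1, 11 and 6.6.

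E proteins and their inhibitors differed member by member. Tcf3, which encodes E2A, was 59.3, 55.4 and 87.4 in PIR- KO and 33.3, 23.5 and 31.9 in PIR+ KO libraries, a fold of -1.15 ± 0.21 (SE, adjusted p = 1.14e-05). Tcf4 and Tcf12, the other E proteins, were not called. Id2 (chromosome 12, 25093799 to 25097140), the inhibitor needed by innate lymphoid cells, was 17.0, 15.2 and 28.1 in PIR+ KO against 0, 1.2 and 1.5 in PIR- KO (3.53 ± 0.38 SE, adjusted p = 4.46e-13). Id3 went the other way, at 15.8, 16.6 and 47.1 in PIR+ KO and 47.7, 74.4 and 81.6 in PIR- KO libraries. Thus Id2 was higher and Id3 lower in the PIR+ fraction, and for Id3 PIR+ KO replicate 3 came close to the lowest PIR- KO library. With only libraries whose markers field and title concur, Id3 was not called.

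Recombination genes were lower in the PIR+ fraction on both scales for 2 of 8 tested members (2.97% over all genes). Rag1, the recombinase subunit that cuts receptor gene segments, was 26.7, 14.2 and 13.7 in PIR+ KO and 64.6, 68.0 and 88.2 in PIR- KO libraries (fold -2.01 ± 0.24 SE, adjusted p = 3.95e-11). Rag1 was thus present in every library of both fractions. Hmgb1, which assists the recombinase and has many other roles, was 271.8, 222.6 and 252.6 against 315.6, 334.0 and 434.0. Its call was lost in 5 of 27 alternative analyses, among them those that left out PIR+ KO replicate 2 or PIR- KO replicate 3. With only libraries whose markers field and title concur, 1 member was lower and 1 higher. Dntt, which adds nucleotides at receptor joints, was 0 in all 6 KO libraries.

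**Figure D3:**
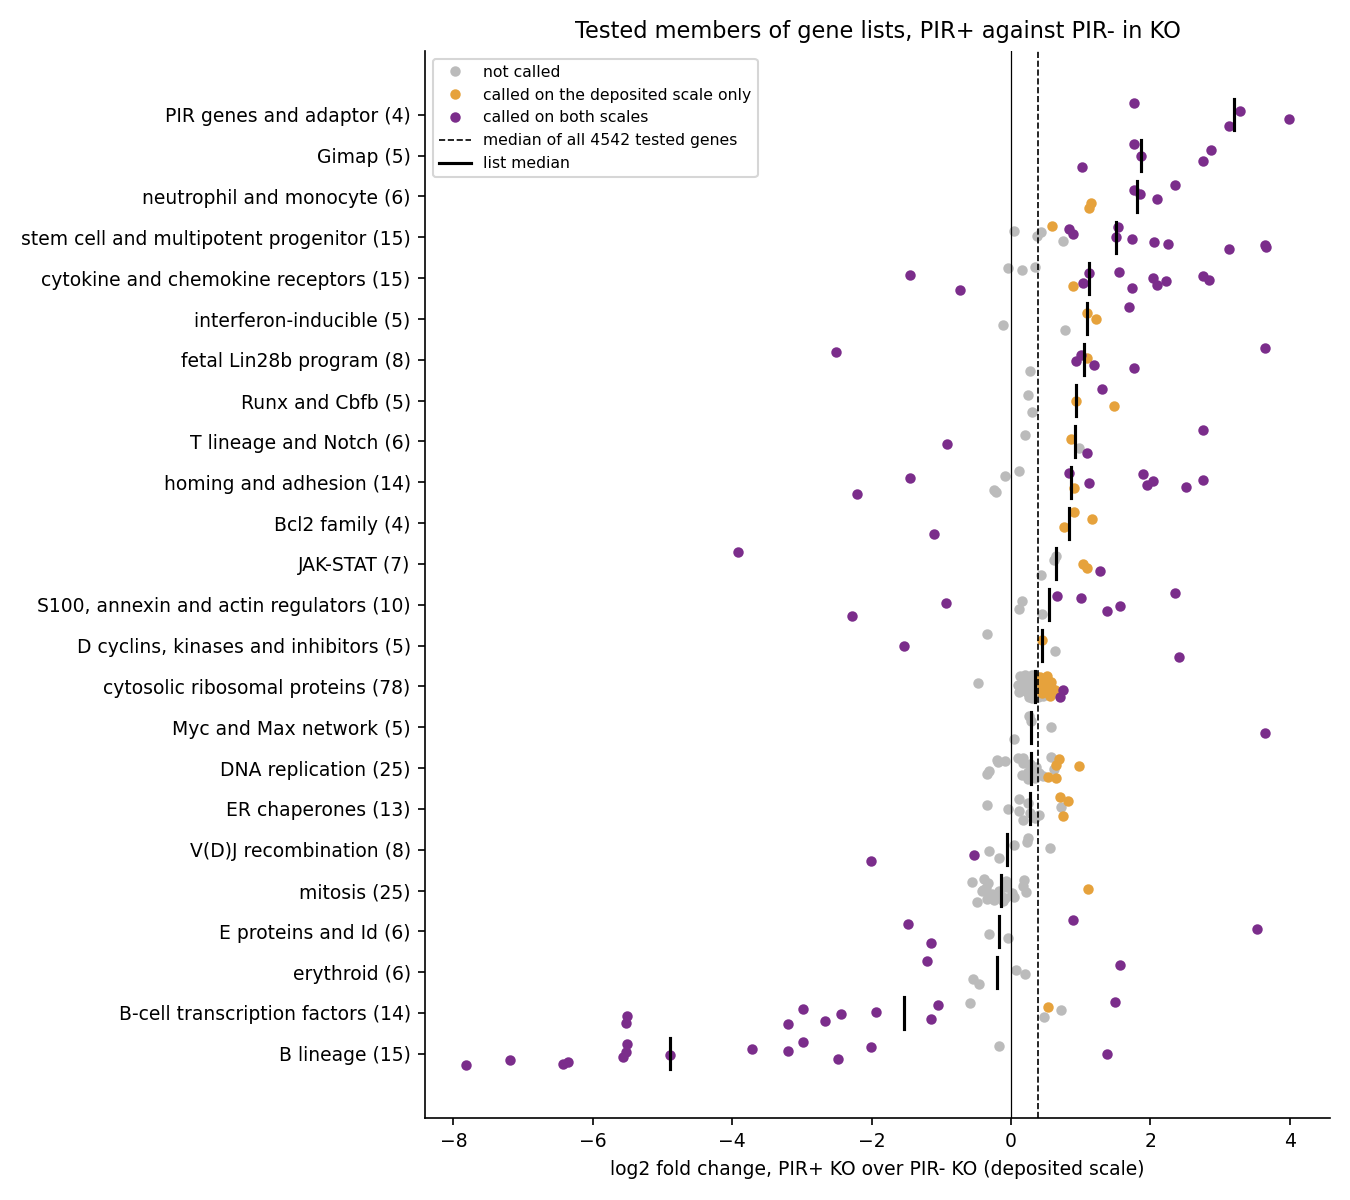
Log2 fold of PIR+ KO over PIR- KO on the deposited scale (x axis) for each tested member of the gene lists with at least 4 tested members (y axis, number tested in parentheses), with the list median as a black bar and the median of all tested genes as a dashed line. B-lineage members reach furthest to the left and the PIR, Gimap, myeloid and stem cell lists lie to the right, and members at 0 in 1 group are placed by their fitted value.

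Genes of T-lineage potential were present at the level of receptors and not of the T-cell receptor complex. Ccr9, the chemokine receptor that guides progenitors to the thymus (chromosome 9, 123678439 to 123784330), was 15.8, 25.5 and 23.6 in PIR+ KO and 2.6, 0.6 and 5.1 in PIR- KO libraries, a fold of 2.76 ± 0.34 (SE, adjusted p = 6.19e-11). Notch1, the receptor whose signal starts T-cell development, was 53.9, 48.0 and 76.8 against 28.6, 19.6 and 34.5 (1.09 ± 0.23 SE, adjusted p = 0.000111). In both receptors all 3 PIR+ KO values lay above all 3 PIR- KO values, as in 35.7% of all tested genes. Hes1, a target of Notch, was lower in PIR+ KO, at 9.1, 5.9 and 12.9 against 14.8, 21.3 and 17.6, and was not called with only libraries whose markers field and title concur. Rbpj, the nuclear partner of Notch, was called as deposited (0.86 ± 0.29 SE, adjusted p = 0.0203) but not once libraries were rescaled (0.49, adjusted p = 0.161). Its adjusted p ran from 0.00727 to 0.426 across the alternatives. Of 22 genes of the T-lineage list 6 passed the filter, and 2 were higher on both scales (8.08% over all genes) and 1 lower (2.97%). The T-cell receptor chains Cd3e, Cd3d and Cd3g, and Thy1, Cd8a and Bcl11b, were 0 in all 6 KO libraries.

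The innate lymphoid list had 2 tested members of 17, and both were higher in PIR+ KO on both scales (8.08% over all genes). Beside Id2, Tyrobp (DAP12, the adaptor of activating receptors in natural killer and myeloid cells) was 73.9, 75.9 and 130.0 in PIR+ KO and 13.8, 11.5 and 6.6 in PIR- KO libraries (fold 3.02 ± 0.29 SE, adjusted p = 1.17e-15). The effector and lineage genes Ncr1, Eomes, Tbx21, Gzma, Gzmb and Il2rb were listed at 0 in all 6. Summed over the 17 genes, the level was 105.4 to 192.4 in PIR+ KO and 14.7 to 17.3 in PIR- KO libraries. Tyrobp and Id2 made up most of that sum in every KO library, and 8 of the 17 genes were 0 in all of them.

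Stem cell and multipotent progenitor genes were higher in the PIR+ KO fraction. Of 27 listed genes 15 were tested, and 10 were higher on both scales (8.08% over all genes) and 0 lower (2.97%). Their median fold was 1.51, beside 0.39 over all tested genes. Cd34, the surface sialomucin of early progenitors (chromosome 1, 194938819 to 194961279), was 159.3, 177.3 and 209.9 in PIR+ KO and 19.1, 19 and 21.3 in PIR- KO libraries, a fold of 3.13 ± 0.21 (SE, adjusted p = 2.36e-24). Mycn, a Myc family member from the Myc list (chromosome 12, 12936093 to 12941914), was 37.6, 30.4 and 41.8 against 1.1, 2.9 and 2.2 (3.65 ± 0.35 SE, adjusted p = 1.45e-15). Hlf, a factor of long-term stem cells, was 21.2, 14.2 and 15.2 against 0, 1.7 and 0. Cd34 and Mycn were named by a rule that required no overlap, and 39.1% of all tested genes had none. Lmo2, a bridging factor of the stem cell program, was 42.4, 29.4 and 39.5 against 7.9, 9.2 and 4.4. Flt3, the receptor of lymphoid-primed progenitors, named after its value was seen, was 53.9, 63.7 and 66.2 against 15.9, 20.2 and 16.9. Procr and Slamf1, which mark the most primitive stem cells, and Mecom were at most 0.5 in every KO library. The summed level of the 27 genes was 771.9 to 938.5 in PIR+ KO and 277.9 to 325.5 in PIR- KO libraries.

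Other genes near the top of the PIR+ KO side belong to several functions. Ctla2a, which encodes an inhibitor of cathepsins, was 33.5, 35.5 and 36.5 in PIR+ KO against 1.1, 2.9 and 3.1 in PIR- KO (3.49 ± 0.39 SE). Cdh17, a cadherin, was 27.3, 26.0 and 26.6 against 1.6, 1.2 and 3.7, and Calcrl, the receptor component for adrenomedullin, was 43.0, 38.7 and 52.5 against 4.8, 4.0 and 5.9. The PIR+ KO values of Cdh17 were nearly equal, and the naming rule required both genes not to overlap. Fscn1, the actin-bundling protein fascin, was 47.3, 45.5 and 60.8 against 7.4, 4.0 and 5.1. Rgs18, a regulator of G-protein signals in blood cells, was 33.9, 17.6 and 38 against 1.1, 8.6 and 1.5. Lst1, a membrane protein of white blood cells, was 43.0, 42.6 and 48.7 against 4.2, 4.6 and 5.1. 4931406C07Rik and Slc35d3 complete the 12.

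On the PIR- KO side, genes outside the B-cell receptor also stood high. Socs2, an inhibitor of cytokine signals induced through STAT5, was 51.4, 49.6 and 70.5 in PIR- KO and 1.8, 1.5 and 6.8 in PIR+ KO libraries (fold -3.92 ± 0.33 SE, adjusted p = 1.12e-18). Chchd10, a mitochondrial protein, was 145.1, 177.0 and 245.4 against 8.5, 9.8 and 8.4. Cplx2, a complexin that regulates vesicle fusion, was 57.7, 65.2 and 73.5 against 0, 0 and 0.8. The naming rule required that these 3 genes not overlap. Of the 3, Cplx2 was the one at 0 in some PIR+ KO libraries. Trp53i11, a gene induced by p53, was 48.7, 53.0 and 79.4 against 0.6, 0.5 and 0. Within the JAK-STAT list of 7 tested genes, Socs2 was the 1 lower on both scales (2.97% over all genes). Jak3, the kinase of the common gamma chain, was the 1 higher (8.08%), at 16.4, 16.2 and 25.1 against 6.4, 7.5 and 7.7.

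The 6 of 28 neutrophil and monocyte genes that passed the filter were all higher in PIR+ KO as deposited (22.5% over all genes). On both scales 4 of them were higher (8.08%). Fcer1g, the PIR-A adaptor that the sort itself ties to the PIR sign, was among the 4. Sfpi1, which encodes the myeloid and lymphoid factor PU.1, was 56.3, 53.9 and 71.5 in PIR+ KO and 13.2, 16.1 and 19.1 in PIR- KO libraries (fold 1.85 ± 0.24 SE, adjusted p = 2.71e-10). Csf1r, which encodes the M-CSF receptor, was 21.8, 19.6 and 50.9 against 6.9, 7.5 and 3.7. PIR+ KO replicate 3 was the highest for both. Alox5ap, which serves leukotriene synthesis, was 12.1, 11.8 and 25.1 against 2.1, 1.7 and 2.9. Mpo, the peroxidase of granules, was 45.4, 41.1 and 57.0 against 24.9, 29.4 and 13.2 and was not called once libraries were rescaled (0.72, adjusted p = 0.142). Its adjusted p ran from 7.98e-05 to 0.142 across the alternatives. Genes of mature granulocytes, S100a8, S100a9, Ltf, Ngp, Camp and Ctsg, were 0 in all 6 KO libraries. The list summed to 186.3 to 295.8 in PIR+ KO and 64.4 to 94.1 in PIR- KO libraries.

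Markers of other cells that the liver could contribute were examined by list. No macrophage, stromal, hepatocyte, megakaryocyte or mast cell gene passed the filter. The 13 macrophage genes summed to 3.1 to 9 in PIR+ KO and 0.5 to 1.4 in PIR- KO libraries, with Mertk, Marco, Vcam1, Cd163 and Timd4 at 0 in all 6. The 12 hepatocyte genes summed to 9.8 to 28.4 and 14.3 to 25.5, and the 14 megakaryocyte, mast cell and basophil genes to 9.9 to 25.2 and 0 to 9.8. The 9 endothelial genes summed to 26 to 35.7 in PIR+ KO and 12.2 to 22 in PIR- KO libraries, so they moved with the PIR sign, and Eng was called higher on the deposited scale only (1.11 ± 0.33 SE, adjusted p = 0.0068). The 12 dendritic cell and MHC class II genes summed to 63 to 86.5 and 59.1 to 69.2. The part of these cells in the results was not tested. Among 6 tested erythroid genes, the 4 adult globins were not called between the KO fractions with all libraries. Without PIR+ KO replicate 1, 3 of them were called lower in PIR+ KO: Hba-a1 (fold -2.09, adjusted p = 1.07e-05), Hba-a2 (-2.10, adjusted p = 3.39e-06) and Hbb-b2 (-1.36, adjusted p = 0.016). Without PIR- KO replicate 1 instead, Hbb-b2 was called higher (1.84, adjusted p = 0.0436). Hba-a1 was high in 1 library of each group, so the globin direction depends on the library left out. Car2, a carbonic anhydrase, was higher in PIR+ KO, at 40.0, 33.3 and 26.6 against 11.1, 6.3 and 16.2. Transferrin receptor message (Tfrc) was lower, at 12.7, 11.8 and 20.5 against 38.1, 28.8 and 38.2 (-1.20 ± 0.24 SE, adjusted p = 5.08e-05), and was not called with only libraries whose markers field and title concur (-0.67, adjusted p = 0.126).

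Receptors for cytokines and chemokines were mostly higher in PIR+ KO cells. On both scales 9 of 15 tested members were higher (8.08% over all genes) and 2 lower (2.97%). The median fold of these receptors was 1.12. Beside Ccr9, the largest were those for interleukins 21 and 4. Il21r was 17.0, 16.6 and 14.4 in PIR+ KO and 1.6, 0.6 and 2.2 in PIR- KO libraries (fold 2.84 ± 0.40 SE, adjusted p = 8.08e-09), and Il4ra was 11.5, 8.3 and 18.3 against 1.1, 1.7 and 2.9. The lower members were Il7r and Cxcr4, the receptor that retains B-cell progenitors near CXCL12, named after its value was seen, at 3.0, 4.9 and 6.8 against 14.3, 12.7 and 16.9. Without the libraries rich in Hba-a1, 1 member was called lower, and with only libraries whose markers field and title concur, 0.

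Homing and adhesion genes moved in both directions, 7 of 14 tested higher on both scales (8.08% over all genes) and 2 lower (2.97%). Itgb2, the beta2 integrin chain, was 16.4, 14.7 and 25.1 in PIR+ KO and 2.1, 2.9 and 2.2 in PIR- KO libraries (fold 2.51 ± 0.40 SE, adjusted p = 4.03e-07). Ccr7, the receptor for lymphoid tissue and thymus chemokines, was 6.7, 4.9 and 7.6 against 1.1, 0.6 and 0.7. The PIR+ fraction thus had more message of both, and neither gene overlapped between the KO fractions (39.1% of all tested genes did not). Cxcr4, a lower member, is described above, and with only libraries whose markers field and title concur 0 members were called lower.

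The fetal program of Lin28b targets was higher for 5 of 8 tested members on both scales (8.08% over all genes) and lower for 1 (2.97%). Hmga2, which encodes an architectural chromatin protein, was 156.3, 169.9 and 244.9 in PIR+ KO and 59.8, 62.3 and 43.3 in PIR- KO libraries (fold 1.76 ± 0.21 SE, adjusted p = 2.34e-11). Arid3a, a DNA-binding protein of fetal lymphoid cells, was 59.4, 49.0 and 54.8 against 22.2, 30.6 and 18.4. H19, an imprinted long RNA, was the lower member, at 62.4, 40.6 and 69.2 in PIR+ KO against 265.9, 281.4 and 459.9 in PIR- KO (-2.52 ± 0.19 SE, adjusted p = 5.34e-21). H19 and its neighbours in the list thus went opposite ways. Lin28b itself was below the filter, at no more than 11.4 in any KO library.

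The D cyclins, which drive entry into the cell cycle, divided between the fractions. Ccnd1 was 75.1, 74.4 and 106.5 in PIR+ KO and 11.7, 17.3 and 16.9 in PIR- KO libraries (fold 2.40 ± 0.25 SE, adjusted p = 3.88e-14). Ccnd3 was 56.9, 48.5 and 60.1 against 129.2, 151.1 and 214.5 (-1.54 ± 0.19 SE, adjusted p = 1.12e-10). Ccnd2 was not called. Ccnd1 was therefore higher and Ccnd3 lower in the PIR+ fraction, each without overlap (39.1% of all tested genes had none). No member of the 2 general cell cycle lists was called on both scales. Of 25 DNA replication genes 5 were higher on the deposited scale (22.5% over all genes) and 0 on both. After scaling 5 were called lower (7.60% over all genes). Of 25 mitosis genes 1 was higher on the deposited scale (22.5% over all genes), Kif23, and after scaling 13 were lower (7.60%). The median fold of the replication genes was 0.29 as deposited and -0.10 after scaling, so its direction depends on the scale. That of the mitosis genes was below 0 on both, at -0.14 and -0.53.

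Smaller families gave clear counts in 1 case. All 5 tested Gimap genes, small GTPases of lymphocyte survival that lie together on chromosome 6, were higher in PIR+ KO on both scales (8.08% over all genes). Their median fold was 1.86. Gimap4 was 58.2, 52.4 and 66.2 in PIR+ KO and 4.8, 11 and 8.8 in PIR- KO libraries, and Gimap8 was 23.6, 19.6 and 20.5 against 1.1, 1.2 and 5.1. Gimap6 was 36.4, 41.6 and 38.8 against 7.9, 12.1 and 10.3. Summed over 8 Gimap genes the level was 173 to 194.7 against 35.5 to 59.4, so the fractions did not overlap.

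In the Bcl2 family of death regulators, 1 gene of 4 tested was called on both scales (11.1% over all genes). This was Bcl2l1, which encodes the survival protein BCL-XL, at 6.1, 8.8 and 15.2 in PIR+ KO against 19.6, 18.5 and 27.2 in PIR- KO. It was not called without the libraries rich in Hba-a1 or without PIR+ KO replicate 1. Mcl1, Bad and Bid were higher on the deposited scale only. Among S100, annexin and actin genes 5 of 10 tested were higher on both scales (8.08% over all genes) and 2 lower (2.97%). Emp3 was 53.9, 49.5 and 77.6 in PIR+ KO and 7.9 to 12.7 in PIR- KO libraries, while Crip1, a small LIM-domain protein, was 25.4, 18.1 and 19.8 against 84.2, 102.6 and 133.7. Jund was the 1 gene of 2 tested immediate early genes called, lower in PIR+ KO (2.97% over all genes). It was not called with only libraries whose markers field and title concur, and after scaling both tested members were lower (7.60% over all genes). Fos and Egr1, the usual signs of handling stress, were at most 0.8 in every KO library. Of 78 tested ribosomal protein genes 19 were higher on the deposited scale, where 22.5% of all tested genes were. On both scales 2 were, Rpl6 and Rpl26 (8.08% over all genes), and after scaling 7 were called lower, close to the 7.60% over all genes. Of 5 tested interferon-inducible genes 3 were higher on the deposited scale (22.5% over all genes). Ifi203 was the 1 higher on both (8.08%), at 83.9, 86.9 and 101.1 against 20.1, 30.6 and 33.1. Of 13 ER chaperones 3 were higher on the deposited scale, close to the 22.5% of all genes, and 0 on both.

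Runx genes and their partner were examined because Runx proteins direct early lymphoid choices. Cbfb, the subunit shared by all Runx proteins, was 12.1, 15.7 and 16.0 in PIR+ KO and 6.4, 14.4 and 18.4 in PIR- KO libraries, a fold of 0.25 ± 0.25 (SE, adjusted p = 0.458). In wild type it was 55.8, 44.1 and 50.8 in PIR+ and 36.0, 34.1 and 33.4 in PIR- libraries, above all 6 KO values. Cbfa2t3, a corepressor, was higher in PIR+ KO on both scales, at 24.8, 23.5 and 40.3 against 11.1, 11 and 11. It was the 1 such member of 5 tested (8.08% over all genes). Runx2 and Runx3 were called higher on the deposited scale only, and Runx1 was not called.

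The same fractions of wild-type embryos, which share no library with the KO comparison, gave 2015 called genes (44.4%), 1846 higher (40.6%) and 169 lower (3.72%) in PIR+. On both scales 509 were higher (11.2%) and 168 lower (3.70%), and 2362 of the tested genes (52.0%) had no overlap between the wild-type fractions. Of the 367 genes higher in PIR+ KO on both scales, 268 (73.0%) were also higher in PIR+ wild type on both scales, which is 52.7% of the wild-type list. Of the 135 lower in KO, 110 (81.5%) were lower in wild type, 65.5% of that list. No gene called on both scales in KO was called in the opposite direction in wild type. The counts of the 2 genotypes were not tested against each other. Xist was 12.7, 18.4 and 12.9 in PIR+ and 2.7, 9.3 and 18.6 in PIR- wild-type libraries. Ddx3y was 7, 7.9 and 5.4 in PIR+ and 4.2, 5.4 and 7.8 in PIR- wild type. PIR+ KO libraries thus lay apart from all others in both messages. Embryo sex and a difference between the genotypes therefore cannot be told apart, also for X-linked genes such as Tspan6. A difference between the genotypes in the fold itself was called for 26 genes (0.572%), 5 with a fold shifted upward in KO (0.110%) and 21 downward (0.462%). After scaling 34 were called (0.749%), and 21 passed on both scales (0.462%), 4 upward (0.0881%) and 17 downward (0.374%).

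**Figure D4:**
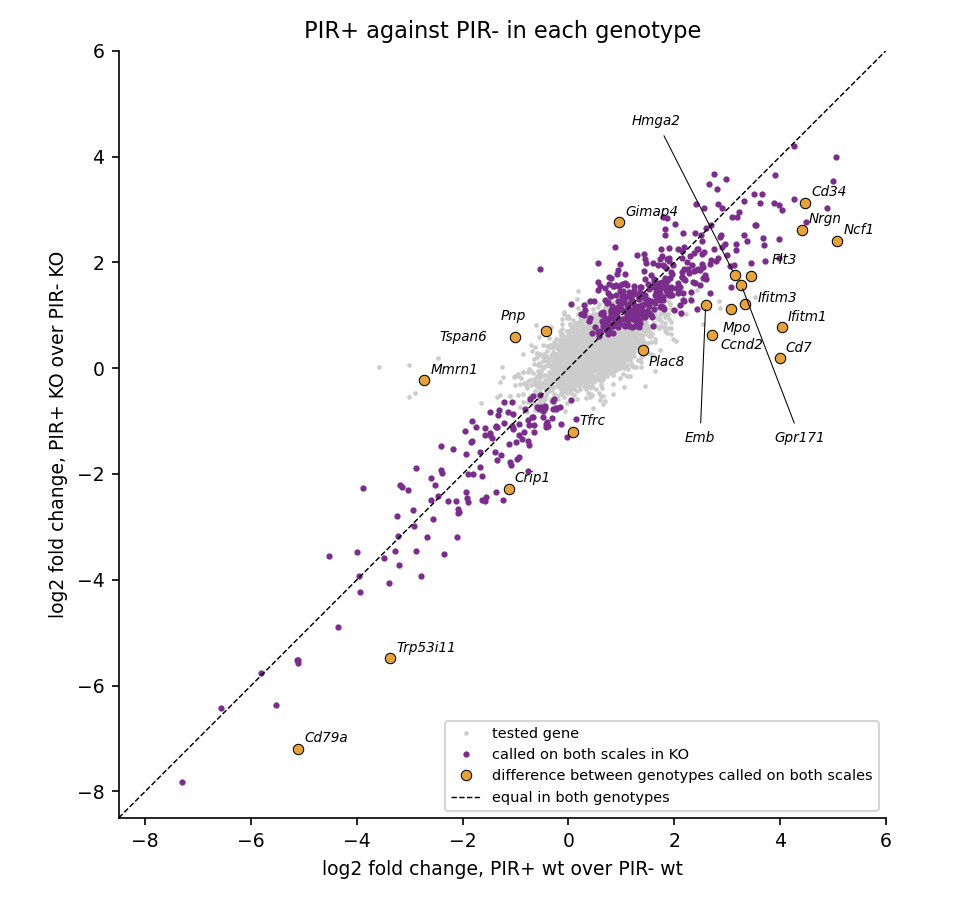
Log2 fold of PIR+ over PIR- for each of the 4542 tested genes in wild type (x axis) and in KO (y axis), with genes called in KO on both scales in purple and the 21 genes whose fold differed between genotypes on both scales in orange. Most purple points lie near the diagonal, Cd7, Ifitm1 and Ncf1 lie well below it on the right, and Gimap4 and Mmrn1 lie above it.

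Among genes whose fold was smaller in KO, some were lower in PIR+ KO than in PIR+ wild-type libraries. Cd7, a surface protein of T, natural killer and early lymphoid cells (chromosome 11, 121036747 to 121039418), was 21.6, 19.1 and 14.9 in PIR+ wild type, with 0, 0.5 and 0 in PIR+ KO. It was 0, 0.8 and 0 in PIR- wild type and 0 in all PIR- KO libraries, so its fold was 3.99 in wild type and 0.20 in KO (difference -3.80 ± 0.90 SE, adjusted p = 0.0136). Only the PIR+ wild-type libraries held more than traces of Cd7. Ifitm1, an interferon-induced membrane protein of progenitors, was 49.5, 49.3 and 59.7 in PIR+ wild type, with 4.2, 16.2 and 16.7 in PIR+ KO. The PIR- libraries held 1.6, 2.3 and 3.1 (wild type) and 3.2, 5.2 and 11 (KO), and the Ifitm1 folds differed (by -3.25 ± 0.48 SE, adjusted p = 4.74e-06). Nrgn, a calmodulin-binding protein, was 62.2, 76.3 and 76.6 in PIR+ wild type, with 26.4, 29.4 and 28.9 in PIR+ KO. Ccnd2, the third D cyclin, was 55.2, 62.5 and 83.4 in PIR+ wild type, whereas PIR+ KO libraries held 19.4, 20.6 and 38. Its PIR- values were 16.4, 4.6 and 10.1 (wild type) beside 12.2, 18.5 and 16.9 (KO). For these 4 genes no PIR+ KO value reached the PIR+ wild-type range. Ifitm1 kept the genotype call in all 26 alternative analyses, whereas Nrgn lost it in 8 and Ccnd2 in 5 of 26. Cd7 lost it in 6 of 25. Ncf1, a subunit of the phagocyte oxidase, and Ifitm3 had the same order of means.

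For other genes with a smaller fold in KO, as for Ifitm1, the PIR- KO libraries were above the PIR- wild-type libraries. Flt3 was 15.9, 20.2 and 16.9 in PIR- KO and 9.5, 3.1 and 6.2 in PIR- wild type, while PIR+ libraries held 53.9 to 66.2 in KO and 64.1 to 86.1 in wild type (difference -1.72 ± 0.35 SE, adjusted p = 0.00198). Cd34 was 19.1, 19 and 21.3 in PIR- KO and 8.0, 5.4 and 4.7 in PIR- wild type, and its folds were 3.13 and 4.47. Hmga2 was 59.8, 62.3 and 43.3 in PIR- KO against 16.4, 9.3 and 18.6 in PIR- wild type. In all 3 genes, chosen for a called difference, every PIR- KO value lay above every PIR- wild-type value. Mpo was 24.9, 29.4 and 13.2 against 12.7, 3.1 and 4.7. The genotype call was lost in 5 of 26 alternative analyses for Flt3 and Mpo, in 6 for Hmga2 and in 8 for Cd34. The smallest differences across these analyses were -0.77 (Flt3), -0.47 (Mpo), -0.55 (Hmga2) and -0.65 (Cd34). Cd79a and Trp53i11 had a larger fitted drop in KO, but its size depends on the 1 added before the logarithm. Cd79a was 8.9, 5.9 and 2.7 in PIR+ wild type against 0, 1.0 and 0 in PIR+ KO, and Trp53i11 5.7, 3.3 and 6.8 against 0.6, 0.5 and 0. Both genotype calls were lost with 5 added instead and without a filter. The Cd79a difference ran from -4.34 to -0.75 across the alternatives. For both, the PIR- libraries of the genotypes overlapped.

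Among genes whose fold was shifted upward in KO, Gimap4 was 58.2, 52.4 and 66.2 in PIR+ KO and 19.7, 18.4 and 10.8 in PIR+ wild type, beside 4.8 to 11 in PIR- KO and 7.0 to 8.5 in PIR- wild type (difference 1.80 ± 0.39 SE, adjusted p = 0.00612). Pnp, a purine-salvage enzyme whose reads may be shared with its copy Pnp2, was 199.6, 173.3 and 219.8 in PIR+ KO and 66.3, 78.3 and 83.0 in PIR+ wild type. The PIR- values of Pnp were 109.6, 119.3 and 133.0 in KO and 110.8, 101.5 and 93.1 in wild type. Its KO fold of 0.70 was called on the deposited scale and not after scaling (0.30, adjusted p = 0.0583). Tspan6, a tetraspanin on the X chromosome, was 21.8, 21.1 and 28.9 in PIR+ KO against 3.8, 6.6 and 6.8 in PIR+ wild type. The genotype call was lost in 6 of 26 alternative analyses for Gimap4, 3 for Pnp and 14 for Tspan6. The folds of Pira1, Pira2, Lilrb3 and Fcer1g were not called as different between genotypes. The count of 26 fell to 15 without PIR+ wild-type replicate 2. It was also smaller without the libraries rich in Hba-a1, and with libraries whose markers field and title concur. Both choices leave 1 PIR- wild-type library, and matching markers also leave 1 PIR+ KO library.

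**Figure D5:**
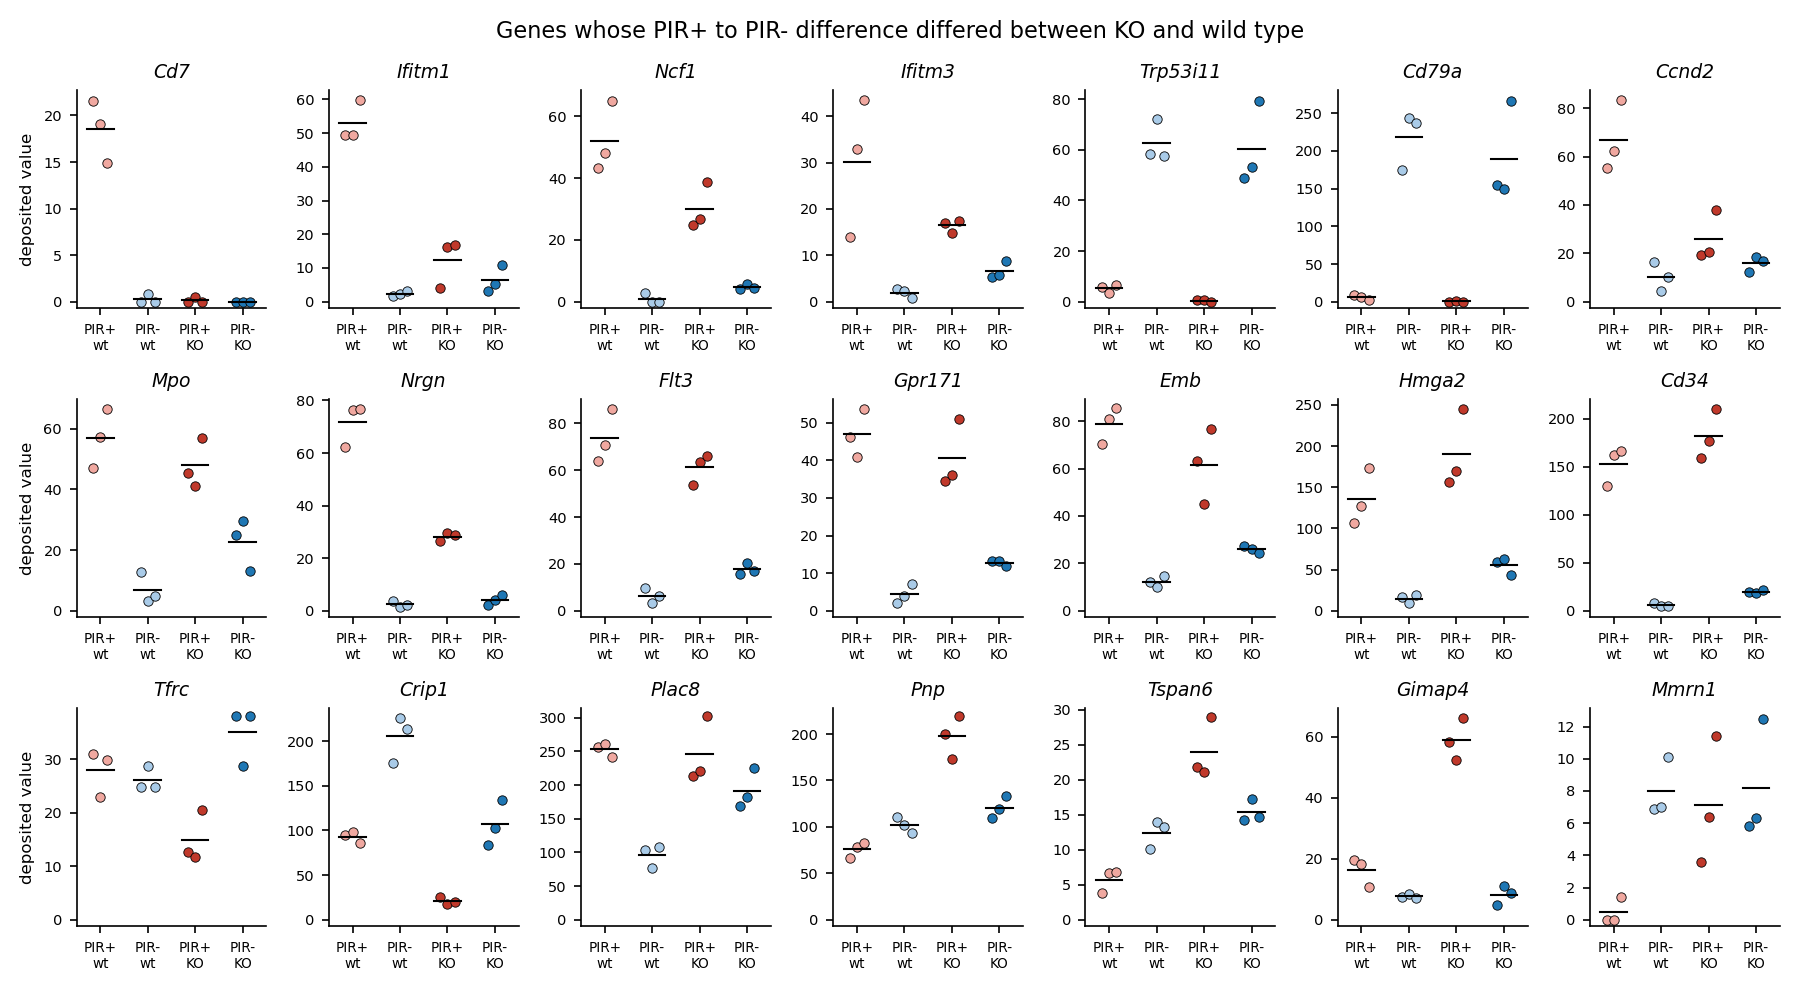
Normalized molecule counts (y axes) in each of the 12 libraries, by group (x axis), for the 21 genes whose PIR+ to PIR- fold differed between genotypes on both scales, with the group mean as a bar. Cd7, Ifitm1 and Ccnd2 are lower in PIR+ KO than in PIR+ wild type, Flt3, Cd34 and Hmga2 are higher in PIR- KO than in PIR- wild type, and Gimap4 and Pnp are highest in PIR+ KO.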

How the data were processed

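RNA of 12 libraries was measured (2 PIR fractions, 2 genotypes, 3 libraries each), with a molecular barcode in the reverse transcription primer and an equal ERCC spike-in per the labels' protocols. The authors deposited 1 table of signal values, normalized molecule counts per gene to 1 decimal, with p-values of the authors for 2 other comparisons, not used here. The submitters' processing notes name TopHat2, DESeq2 and the mm10 build. From the steps of low values, 93.0 to 93.8% of low KO values came out whole within 0.055, a share too low to recover counts. Genes with 10 or more in at least 3 of 12 libraries were tested on log2(value + 1) with limma 3.58.1 (R 4.3.3, trended prior, 4 group means, 8 residual degrees of freedom) and Benjamini-Hochberg adjustment over all 4542, threshold 0.05. The second scale was median-of-ratios. The genotype test is the KO fold minus the wild-type fold. Members, gene lists and the naming rule were chosen with earlier results of these data known. The rule named the 12 largest folds per direction called on both scales with a mean of 20 or more and no overlap, up to 4 called genes per list and those at 0 in a KO group, the 8 largest genotype differences per direction, and the sort, globin and sex-linked genes. Gene positions come from GENCODE M21 (GRCm38), where 4312 of the tested genes were found. No 2 libraries held identical values. Some genes that met the naming rule are not reported here.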

Additional observations from a re-analysis of the deposited data

Results flagged for a closer look

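For 26 genes the PIR+ to PIR- difference was itself different between KO and wild type by limma's test of the interaction, given here as the KO log2 fold minus the wild-type log2 fold. Among those with a mean of PIR+ libraries lower in KO than in wild type were Cd7 (-3.80), Ifitm1 (-3.25), Ncf1 (-2.67), Tsc22d1 (-2.17), Ifitm3 (-2.12), Ccnd2 (-2.07) and Nrgn (-1.80). Among those with a mean of PIR- libraries higher in KO were Mpo (-1.95), Csf1r (-1.89), Tyrobp (-1.87), Flt3 (-1.72), Gpr171 (-1.69), Emb (-1.4), Hmga2 (-1.39), Cd34 (-1.34) and Plac8 (-1.05). These descriptions overlap. All genes of the former list but Cd7 also had a higher PIR- mean in KO. All of the latter but Csf1r, Hmga2 and Cd34 also had a lower PIR+ mean in KO.

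Trp53i11 (-2.11), Cd79a (-2.09) and Crip1 (-1.14) were lower in PIR+ than in PIR- cells of both genotypes, with the larger difference in KO. For Trp53i11 and Cd79a the PIR+ KO values were near 0, and both calls were lost with 5 added before the logarithm. Tfrc (-1.29) and Irf2bp2 (-1.36) complete the genes shifted downward. The genes shifted upward in KO were Pnp (1.13), Tspan6 (1.61), Gimap4 (1.80), Mmrn1 (2.51) and Beta-s (3.59), the last a beta globin. Tsc22d1, Csf1r, Tyrobp, Irf2bp2 and Beta-s were not called after median-of-ratios scaling. KO and wild-type libraries of 1 fraction were not tested against each other.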

How the results depend on the processing

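The count of genes called between PIR+ and PIR- KO, 1158 (1023 higher, 135 lower), moved to 712 (367 and 345) with median-of-ratios scaling and to 725 (440 and 285) with each library divided by its sum. It was 576 without the libraries with Hba-a1 above 300, 630 with scaling added to that (chosen after seeing the data), and 773 with a filter of 20. Leaving out 1 library gave 662 (without PIR+ KO replicate 3) to 1418 (without PIR- KO replicate 3). In wild type, 2015 became 1024 and 1073 with the scalings, 1294 with a filter of 20, 700 without the libraries rich in Hba-a1 (594 with scaling), 1053 with only libraries whose markers field matches the title, and 1320 to 2083 with 1 library left out. The 26 genotype differences became 3 without a filter, 3 without a trend in the prior, 6 without the libraries rich in Hba-a1, 10 with matching markers, 39 with division by the sum, and 15 to 33 with 1 library left out. The cause of these changes was not tested. With the replicate block the counts were 1684, 2409 and 34. Residuals of same-numbered KO libraries correlated at 0.1625, 0.0409 and 0.0623, and those of differently numbered KO libraries at -0.1148 to 0.0583. In wild type the ranges were -0.0458 to 0.0460 and -0.1006 to 0.0653. The labels do not say that a number pairs libraries, so the main fit held no replicate block. Whether the numbers are pairs was not tested. The embryonic day in the fit gave 1107, 1944 and 30. Of the single-gene results in KO 2884 kept direction and call, 172 lost the call, 20 gained it and 1 reversed: Hbb-b2, 0.0675 with all libraries and not called, was called at -1.36 without PIR+ KO replicate 1 and at 1.84 without PIR- KO replicate 1. Of those for genotype differences 464 kept both, 207 lost the call and 2 reversed, both Tyrobp: 0.2725 with matching markers and 0.0571 with scaling without the libraries rich in Hba-a1. Of the list counts, 1344 stayed and 168 moved. With about 100 cells a tube, a listed 0 may be a missed molecule.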
